A study of Mus musculus with 64 samples.

Results

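The potassium channel subunit genes of the mouse were described as a family across both tissues and all treatments. A gene belonged to the family when its symbol consisted of Kcn, 1 or more lower-case letters and a number, which gave 92 of the 46785 genes listed, with 312 of the 112714 transcripts. A gene's value in a library was the sum of its transcripts' FPKM, which scales mapped fragments by transcript length and library size, so levels of different genes could be compared per unit of length. Of the 92 genes, 64 reached a mean of 1 FPKM over the 32 libraries of at least one tissue and were tested, and 28 did not. The tested genes nearest the limit were Kcnn1 (1.12 FPKM in the tissue with the higher mean), Kcnq1 (1.18) and Kcnu1 (1.2), and the nearest genes below it were Kcnk12 (0.988), Kcng2 (0.920) and Kcnj13 (0.817).

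The study profiled RNA 2 h after a single intraperitoneal injection in adult male C57BL/6N mice of 8 to 10 weeks, in the nucleus accumbens (NAc) and the prefrontal cortex (PFCx). Mice received haloperidol at 1 mg/kg or risperidone at 0.5 mg/kg (antipsychotics), methamphetamine at 2 mg/kg (a psychostimulant), venlafaxine at 16 mg/kg or mianserin at 20 mg/kg (antidepressants), ketamine at 20 mg/kg (a dissociative anaesthetic), or saline. The vehicle of haloperidol and risperidone also held a drop of hydrochloric acid. Each drug had 4 libraries per tissue and saline had 8, labelled as 4 of set I and 4 of set II. Ribosome-depleted RNA was read from one end. The depth worked out from the files ran from 1.52 to 3.26 aligned gigabases per library, with a median of 2.39. In NAc, the libraries fell apart by the number of transcripts with a value above 0, which was 85287 to 87827 with saline I, haloperidol, risperidone and methamphetamine and 107099 to 110556 with saline II, mianserin, venlafaxine and ketamine. All 32 PFCx libraries lay between 108556 and 110852 and did not show the sets, so PFCx libraries of a drug were given the set of its NAc libraries, and every own-set value in PFCx rests on this. Drug effects are therefore given against all 8 saline libraries of the tissue and, beside that, against the 4 of the drug's own set. All drugs of a tissue were compared with the same saline libraries. The labels do not say whether the NAc and PFCx libraries came from the same mice. Both tissues are mixtures of cell types, so fewer cells of a type and less RNA per cell cannot be told apart.

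Potassium channels let potassium ions leave or enter the cell and so set the resting potential, shape the action potential and limit repetitive firing. Voltage-gated pore subunits (Kcna to Kcnd, Kcnh and Kcnq) open on depolarisation, and the silent subunits (Kcnf, Kcng, Kcns and Kcnv) form no channel of their own but change the channels of the Kcnb family. Calcium- and sodium-activated pores (Kcnma, Kcnn and Kcnt) couple firing to ion entry, inward rectifiers (Kcnj) hold the membrane near rest or answer to G proteins or ATP, and Kcnk subunits carry leak current. Auxiliary subunits (Kcnab, Kcnip, Kcnmb and Kcne) bind pores and change their gating or transport. In the NAc most neurons are inhibitory spiny neurons with a strong inward rectifier and A-type current, whereas most neurons of the PFCx are excitatory pyramidal cells.

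The dissections were checked with cell type markers. All 9 markers of striatal spiny neurons were higher in NAc after saline, with summed levels of 628 to 839 FPKM in the 8 NAc libraries and 33.3 to 105 in the 8 PFCx libraries. All 6 markers of cortical projection neurons were higher in PFCx, with sums of 153 to 197 FPKM there and 20.5 to 63.9 in NAc. The 5 oligodendrocyte markers were all higher in NAc, at sums of 512 to 703 against 131 to 184 FPKM. Of the 6 interneuron markers, Gad1, Gad2 and Chat were higher in NAc, Pvalb and Vip were higher in PFCx, and Sst was not called. Gad1 and Gad2 do not tell interneurons from the inhibitory spiny neurons. Of 5 astrocyte markers, 1 was higher in NAc and 2 in PFCx. For microglia 1 of 5 was higher in NAc, and for endothelial and mural cells 1 of 5 was higher in PFCx. The 1 tested of 5 for choroid plexus, Clic6, was higher in NAc (2.17 against 0.301 FPKM). Of the untested ones, Ttr, Folr1 and Aqp1 had lower means in NAc (0.0503, 0.227 and 0.0803 FPKM against 0.146, 0.627 and 0.166), and Otx2 a higher one (0.511 against 0.368). No marker was at 0 in all saline libraries of a tissue. The cortical projection sum in NAc was 46.7 to 63.9 FPKM in saline set I and 20.5 to 41.3 in set II, and the oligodendrocyte sum was 617 to 703 and 512 to 575. Their part in the results below was not tested.

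The summed saline level of the 92 genes was 531 FPKM in NAc and 572 in PFCx, of which the 10 most abundant genes took 46.6% and 40.0%. A mean of at least 10 FPKM was reached by 18 genes in NAc and by 23 in PFCx. Among the most abundant genes in NAc were, in this order, the auxiliary β-subunits Kcnab2 at 31.7 ± 4.64 FPKM (mean ± SD, n = 8) and Kcnab1 (30.5 ± 3.01), Kcnip2 (29.7 ± 2.41) and the inward rectifier Kcnj4 (28.1 ± 2.56). Kcnab2 exceeded Kcnab1 in 6 of 8 libraries, so these neighbours did not differ beyond their spread. Kcnj4 in turn exceeded the sodium-activated pore Kcnt1 (22.5 ± 1.00), in 8 of 8. Among the most abundant genes in PFCx were, in this order, Kcnab2 (36.3 ± 5.72 FPKM), the large-conductance calcium-activated pore Kcnma1 (30.8 ± 1.81), the Kcnma1 partner Kcnmb4 (22.2 ± 4.17), Kcnj4 (19.8 ± 2.18) and Kcnh7 (19.1 ± 1.06). Kcnab2 exceeded Kcnma1 in 8 of 8 libraries, whereas Kcnj4 exceeded Kcnh7 in 5. Within 14 of the 20 families the most abundant gene was the same in both tissues. The other 6 changed, from Kcna1 in NAc to Kcna2 in PFCx, from Kcnd2 to Kcnd3, from Kcnh1 to Kcnh7, from Kcnip2 to Kcnip4, from Kcnk2 to Kcnk1 and from Kcnn3 to Kcnn2. All 4 Kcne genes lay below the limit, at summed saline means of 0.513 FPKM in NAc and 0.821 in PFCx.

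The first comparison asked which subunits differed between NAc and PFCx in the 16 saline libraries. It gave 51 called genes of the 64 tested (limma on log2(FPKM + 1), Benjamini-Hochberg adjusted p under 0.05 over all 16291 genes). Of these, 20 were higher in NAc, where 14.4% of all genes tested were called in that direction, and 31 were higher in PFCx, where 29.3% were. The values of the 8 NAc and the 8 PFCx libraries did not overlap for 40 of the called genes, 16 higher in NAc and 24 higher in PFCx. That made 62.5% of the genes tested, against 16.2% of all genes. The 12 genes per direction named below, Kcna5 and Kcnh7 among them, were picked from these 40. Their lack of overlap, and with it the smallest permutation p-value of Kcna5, follows from this choice. A difference of at least 2-fold was seen for 9 called genes higher in NAc and 19 higher in PFCx. The shares of all genes at this limit were not worked out, so these counts cannot be read as particular to the family. The median log2 difference, NAc minus PFCx, was -0.19 over the family and -0.08 over all genes. With saline set I alone 45 of the 51 kept their call, with set II alone 46, and 41 in both, and none changed sign between the sets. After rescaling every library to its 75th percentile the split was 23 higher in NAc and 28 higher in PFCx.

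The counts by role stand beside 14.4% of all genes called higher in NAc and 29.3% called higher in PFCx. Of the 25 voltage-gated pore subunits tested, 10 were higher in NAc, 10 were higher in PFCx and 5 were not called. Among 7 silent subunits, 5 were higher in PFCx and 1, Kcns2, in NAc. Among 7 pores of the Kcnma, Kcnn, Kcnt and Kcnu families, 5 were higher in PFCx, Kcnu1 among them, and 2, Kcnn3 and Kcnt1, in NAc. The 9 inward rectifiers had 4 higher in PFCx and 2 in NAc, the 7 Kcnk leak subunits 4 and 2, and the 9 auxiliary subunits 3 and 3. Several families held members of both directions. Of the 6 Kcna genes tested, 3 were higher in NAc and 2 in PFCx, and of the 6 Kcnh genes 3 and 3.

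**Figure D1:**
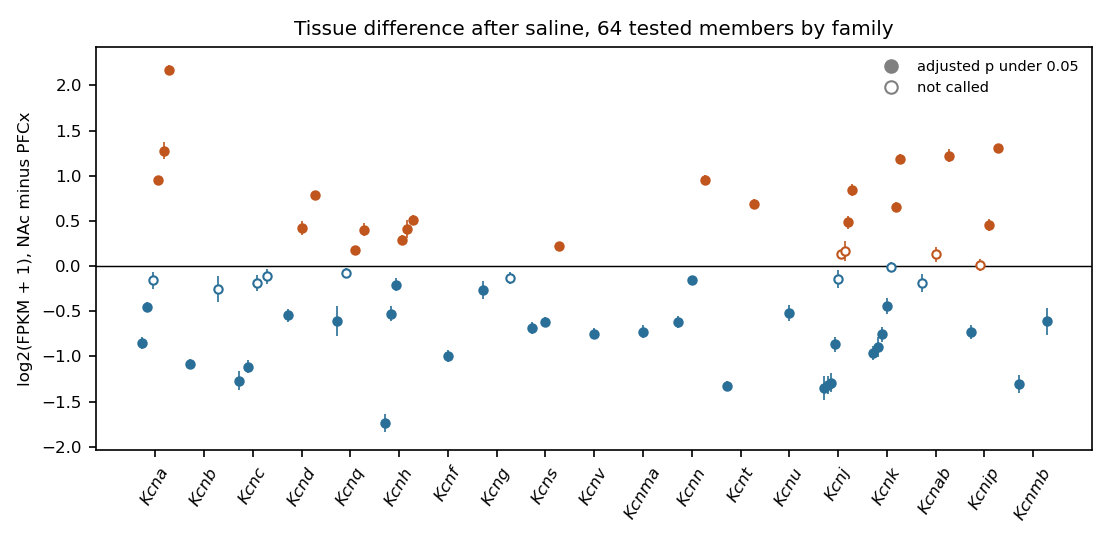
Log2 difference between saline NAc and saline PFCx (vertical axis, log2(FPKM + 1), NAc minus PFCx) of the 64 tested genes, grouped by family along the horizontal axis; bars are standard errors and filled points passed the test. Genes above 0 (20 filled, orange) were higher in NAc and genes below 0 (31 filled, blue) higher in PFCx, and families such as Kcna, Kcnh, Kcnj and Kcnk had filled points on both sides.

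Kcna5 (ENSMUSG00000045534), a delayed rectifier pore encoded on chromosome 6 at 126532551 to 126535412 of GRCm38, had the largest log2 difference of the family. Its level in the 8 NAc saline libraries was 5.17 FPKM at the lowest, 5.51 at the median and 6.54 at the highest, and 0.312, 0.480 and 0.550 FPKM in PFCx. No PFCx library came near a NAc library, and the ratio of the means was 11.9 (log2 difference 2.17 ± 0.05 SE, limma, adjusted p = 6.01e-14; exact permutation test, two-sided, p = 0.000155, the smallest it can give). At the other end, Kcnh7 (ENSMUSG00000059742, chromosome 2, 62693414 to 63184287), a pore of the ERG type, had 3.22, 4.85 and 6.41 FPKM (lowest, median, highest) in NAc and 17.8, 18.9 and 20.7 in PFCx. All PFCx libraries lay above all NAc libraries, by 3.74-fold in the means (log2 difference -1.74 ± 0.10 SE, adjusted p = 2.67e-10). Their promoters are shown because they belong to the genes with the largest difference in each direction. They are the RefSeq windows of 250 bases before to 50 after the start (GRCm38.p6), for Kcna5 chr6:126535506-126535805 and for Kcnh7 chr2:63184238-63184537, both on the minus strand and written 5′ to 3′ along the gene, with capitals for matches to GGGCGG or its reverse complement CCGCCC (the GC box).
Kcna5: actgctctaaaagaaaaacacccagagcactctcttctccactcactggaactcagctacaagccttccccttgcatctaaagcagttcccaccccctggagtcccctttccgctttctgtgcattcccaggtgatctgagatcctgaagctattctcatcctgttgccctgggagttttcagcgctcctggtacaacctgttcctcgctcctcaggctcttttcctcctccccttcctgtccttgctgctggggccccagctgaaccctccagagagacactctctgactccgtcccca
Kcnh7: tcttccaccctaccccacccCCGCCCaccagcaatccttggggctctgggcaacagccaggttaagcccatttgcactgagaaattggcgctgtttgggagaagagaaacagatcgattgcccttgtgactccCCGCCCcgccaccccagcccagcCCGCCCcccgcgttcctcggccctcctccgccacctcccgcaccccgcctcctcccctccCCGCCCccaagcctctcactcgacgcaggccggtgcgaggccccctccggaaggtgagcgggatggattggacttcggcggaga
The Kcnh7 window held 4 GC boxes and the Kcna5 window none. A GC box on either strand stood in 35.7% of 32851 RefSeq promoter windows of this length and in 32 of the 45 tested subunit genes that had a window (71.1%).

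Of the 12 genes named as higher in NAc, Kcna5, Kcna4, Kcna1 and Kcnd2 are pores of the Kcna and Kcnd families, and Kcnip2 and Kcnab1 are their auxiliary subunits. Kcna4, a rapidly inactivating pore, had 12.2, 16 and 18.6 FPKM in NAc (lowest, median, highest of 8) and 4.75, 5.85 and 7.2 in PFCx, a ratio of 2.68 (log2 difference 1.28, adjusted p = 7.24e-09). Kcnd2, the Kv4-type pore of the somatodendritic A-current, had 13.2, 14.2 and 15 FPKM against 7.18, 7.91 and 8.20, a ratio of 1.82 (0.79, adjusted p = 1.71e-10). Its calcium-binding partner Kcnip2 had 26.0, 30.2 and 33.0 FPKM against 10.6, 11.5 and 12.2, a ratio of 2.60 (1.30, adjusted p = 9.22e-12). In none of these genes did a PFCx library reach the lowest NAc library. Kcna1, an axonal low-threshold pore, had 18.2, 19.1 and 20.2 FPKM in NAc and 9.07, 9.35 and 9.62 in PFCx, a ratio of 2.04 (0.95, adjusted p = 3.80e-12). Kcnab1, a β-subunit that speeds inactivation of Kcna channels, had 26.2, 30.2 and 34.1 FPKM against 10.3, 12.4 and 15.2, a ratio of 2.44 (1.22, adjusted p = 6.24e-10). Their close relatives did not follow this order. Kcna2 (ratio NAc over PFCx 0.717, adjusted p = 1.10e-06), Kcna6 (0.528, adjusted p = 2.35e-08), Kcnd3 (0.654, adjusted p = 9.18e-06) and Kcnip4 (0.576, adjusted p = 5.56e-07) were higher in PFCx.

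Leak, inward rectifier and activated pores were also among the 12 genes named as higher in NAc. Kcnk2, a leak pore that responds to stretch and lipids, had 12.3, 13.9 and 16.2 FPKM in NAc and 5.19, 5.62 and 6.02 in PFCx, a ratio of 2.50 (log2 difference 1.18, adjusted p = 3.93e-11). Kcnj2, a strong inward rectifier, had 4.03, 5.30 and 5.72 FPKM against 2.11, 2.33 and 2.69, a ratio of 2.12 (0.84, adjusted p = 1.30e-08). Kcnn3, a small-conductance calcium-activated pore, had 7.2, 7.81 and 8.91 FPKM against 3.24, 3.48 and 4.03, a ratio of 2.2 (0.96, adjusted p = 4.14e-10). Each of these separated all NAc from all PFCx libraries. The same held for Kcnt1 (ratio 1.65, log2 difference 0.69), for the leak subunit Kcnk13 (2.70, 0.66) and for the voltage-gated pore Kcnh4 (1.78, 0.51). Kcnk13 lay below the limit of 1 FPKM in PFCx (means of 0.577 in saline set I and 0.449 in set II) and above it in NAc (1.37 and 1.40). Kcnk2 shared 12.2% of its exonic bases with an antisense RNA, which was itself higher in NAc (0.726 against 0.430 FPKM), and whether the counting used strand is not given in the sources used here.

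Among the genes higher in PFCx, the G protein-gated inward rectifiers stood together. Kcnj3 had 4.18, 5.98 and 9.47 FPKM in NAc (lowest, median, highest of 8) and 14.6, 16.4 and 18.6 in PFCx, 2.63-fold higher in PFCx (log2 difference -1.29, limma, adjusted p = 4.14e-08). Kcnj6 had 2.04, 3.53 and 4.46 FPKM against 7.13, 10.2 and 12.3, 2.98-fold (-1.35, adjusted p = 2.79e-07), and Kcnj9 had 4.05, 5.46 and 7.39 against 12.5, 15.2 and 17.9, 2.73-fold (-1.32, adjusted p = 1.52e-08). All 3 were among the 12 genes named as higher in PFCx, so their lack of overlap follows from the choice. Kcnj5, the fourth pore of this kind, was not tested at 0.236 FPKM in NAc and 0.137 in PFCx. Kcnj3 shared 31.1% of its exonic bases with an antisense RNA at 0.493 FPKM in NAc and 1.03 in PFCx. The fourth inward rectifier higher in PFCx was Kcnj16, which is not gated by G proteins, at 2.59 to 3.78 FPKM against 0.691 to 1.41, 2.50-fold (-0.86, adjusted p = 2.32e-07), without overlap. Kcnj4 (ratio NAc over PFCx 1.42, adjusted p = 4.17e-05) was higher in NAc like Kcnj2, and Kcnj12, Kcnj10 and Kcnj11 were not called (adjusted p = 0.256, 0.0644 and 0.231).

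The Kcnc family pores Kcnc2 and Kcnc4 were 2.55-fold and 2.97-fold higher in PFCx (limma, adjusted p = 1.69e-09 and 3.65e-08). Kcnc2 had 6.68 to 7.86 FPKM there against 2.06 to 3.65 in NAc, and Kcnc4 5.61 to 7.78 against 1.45 to 3.45. Kcnc1 (1.16-fold, adjusted p = 0.0954) overlapped between the tissues and was not called. Kcnb2, a slow delayed rectifier, was 2.61-fold higher in PFCx (adjusted p = 4.32e-11). Kcnf1, a silent partner of Kcnb channels, had 6.92 to 9.34 FPKM in NAc and 15.8 to 18.8 in PFCx, 2.11-fold higher there (adjusted p = 2.33e-09). The remaining silent subunits higher in PFCx were Kcnv1 (1.79-fold), Kcns1 (2.19-fold), Kcns3 (3.22-fold) and Kcng1 (1.25-fold, adjusted p = 0.0377), and Kcng1 alone of these overlapped between the tissues. The NAc means of Kcns1 (0.843 FPKM in saline set I, 0.845 in set II) and Kcns3 (0.392 and 0.364) lay below the limit of 1 FPKM. In PFCx they lay above it (1.78 and 1.92, 1.35 and 1.09).

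The sodium-activated pair ran in opposite directions. Kcnt2 had 2.62, 3.32 and 3.87 FPKM in NAc and 9.03, 9.72 and 10.5 in PFCx, 2.96-fold higher in PFCx (log2 difference -1.33, adjusted p = 1.37e-11), while Kcnt1 was higher in NAc. The large-conductance calcium-activated pore Kcnma1 was 1.68-fold higher in PFCx (13.9 to 20.9 against 28.9 to 33.8 FPKM), and its partner Kcnmb4 2.68-fold (6.77 to 9.40 against 15.9 to 28.5 FPKM, adjusted p = 1.69e-08). Kcnmb4 shared 10.7% and 20.8% of its exonic bases with a pair of antisense RNAs, both of them higher in PFCx (1.87 against 4.37 and 0.712 against 1.97 FPKM). Of the small-conductance pores, Kcnn2 was 1.62-fold higher in PFCx (adjusted p = 6.18e-07), opposite to Kcnn3. The leak subunit Kcnk4 had the largest ratio toward PFCx at 5.74-fold but a low level, 0.101 to 0.333 FPKM in NAc and 0.819 to 1.74 in PFCx. In NAc saline it lay below the limit of 1 FPKM. It shared 13.1% of its exonic bases with Catsperz on the same strand, which moved likewise (0.211 against 1.28 FPKM). Kcnk9 was 2.09-fold higher in PFCx (adjusted p = 4.61e-06), and Kcnk1 was level between the tissues (9.58 to 10.8 and 8.51 to 11.6 FPKM, log2 difference -0.01 ± 0.05 SE).

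**Figure D2:**
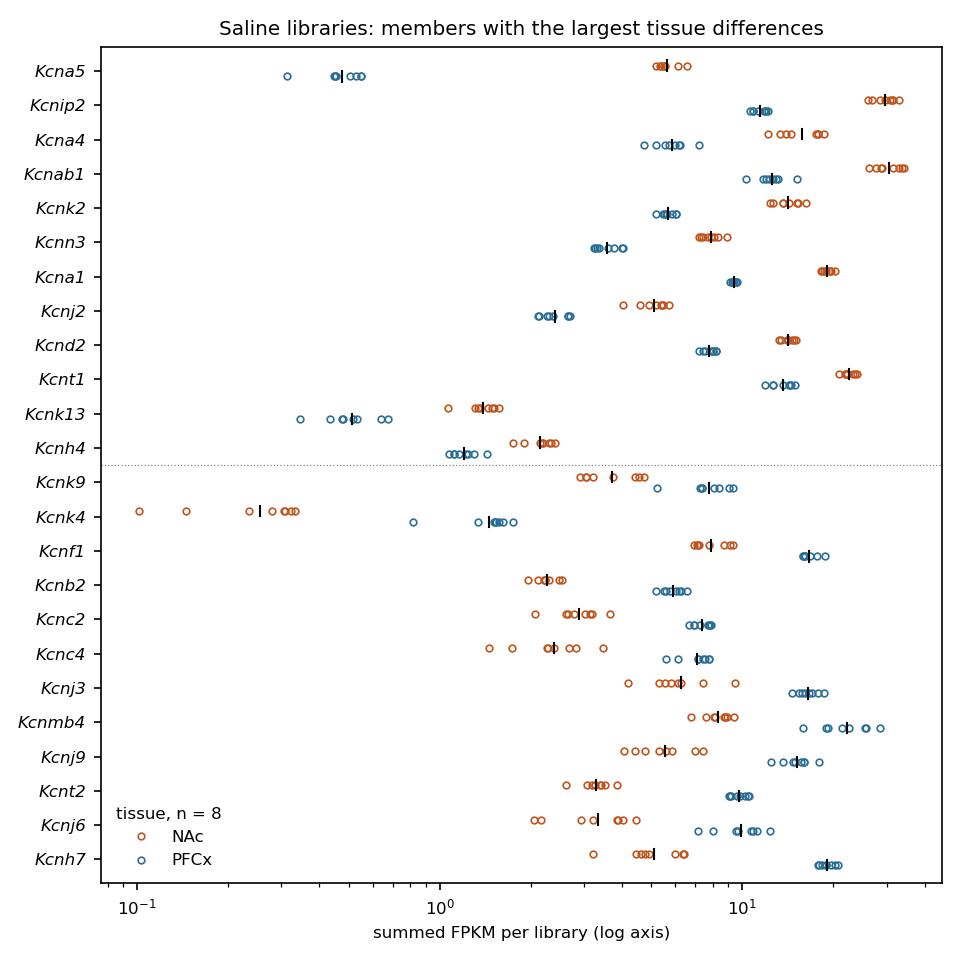
FPKM (log axis) of the 24 named subunit genes in the 8 NAc and 8 PFCx saline libraries, one point per library, with a black tick at each mean and a dotted line between the 12 genes higher in NAc (top) and the 12 higher in PFCx. The 24 genes were picked among those whose libraries did not overlap, so the gaps between the tissues follow from the choice. They run from Kcna5 (5.17 to 6.54 FPKM in NAc, 0.312 to 0.550 in PFCx) to Kcnk9.

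Transcripts were tested in the same way. Of 251 tested transcripts of 89 genes, 29 of 16 genes were higher in NAc (4.27% of all transcripts tested were called in that direction) and 50 of 32 genes in PFCx (9.46%). In none of the 18 genes with 2 or more called transcripts did the directions differ. Called transcripts made up 59 of 181 protein-coding and 10 of 25 retained-intron transcripts tested. The shares over all transcripts of these types were not worked out. Of 44 tested genes with more than 1 transcript, 37 had the same most abundant transcript in both tissues, and 7 did not, among them Kcnip2, Kcnk2, Kcnmb2, Kcnmb4, Kcnn3 and Kcns3. In Kcnn3 the protein-coding transcript took 51.2% of the gene's level in NAc and 45.0% in PFCx, where a retained-intron transcript led with 55.0%.

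Other genes that work with these channels were set beside them. Beside them stand again 14.4% of all genes called higher in NAc and 29.3% called higher in PFCx. Of 17 channel partners, 12 were tested, of which 4 were higher in NAc (Dpp6, Cntnap2, Cntn2 and Hcn2) and 6 in PFCx (among them Dpp10, Amigo1, Lgi1, Abcc8 and Hcn3). The pair of dipeptidyl peptidase-like partners of Kcnd pores thus differed in direction. Dpp6 was 1.33-fold higher in NAc (21.3 to 26.1 against 16.3 to 20.3 FPKM, adjusted p = 2.30e-05).

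The second comparison asked which subunits changed after any of the 6 drugs (moderated F-test of limma over the drugs, one test per tissue, adjusted over all genes). Against all 8 saline libraries, 25 of 64 genes were called in NAc (39.1%), where 30.3% of all genes were called, and 7 in PFCx (10.9%), where 9.47% were. Against the own-set saline libraries the calls numbered 3 in NAc (3.69% of all genes), Kcnj2 and Kcnn2 among them, and 3 in PFCx (2.80% of all genes), Kcnj2, Kcnv1 and Kcnh7. Among the lowest adjusted p-values in NAc were those of Kcnj2 (0.000106), Kcnn2 (0.000282), Kcnf1, Kcnq1, Kcnh3, Kcna5, Kcna3, Kcnk9 and Kcnj6 (0.00508), and the last 7 of these had own-set values of 0.0715 to 0.599. The 7 called in PFCx were Kcnj2 (1.64e-05), Kcnv1 (0.00259), Kcnh7 (0.00320), Kcna1, Kcnj3, Kcnip2 and Kcnc2, and the last 4 had own-set values of 0.112 to 0.511. The saline sets themselves differed. In NAc the sets did not overlap for 11 of the 64 genes (17.2%, against 17.5% of all genes), and 6 of these were among the 25 called. In PFCx 9 genes (14.1%, against 21.4%) had sets that did not overlap, none of them among the 7 called. For comparison, all 13 tested activity-induced genes were called in both tissues against all 8 saline libraries. Against the own set 13 were called in NAc and 10 in PFCx. The study had reported several of them, such as Fosb, Arc, Junb and Homer1, as drug-regulated in these same libraries, so their calls are no independent reference. Of the channel partners, 4 were called in NAc against all 8, and none in the other 3 tests.

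Single drugs changed few subunits. In NAc, against all 8 saline libraries, haloperidol called 4 genes (2.14% of all genes were called), risperidone 2 (1.95%), mianserin 1 (1.19%) and ketamine 1 (2.26%). Methamphetamine (0.491%) and venlafaxine (0.129%) called 0 in limma, with 8 and 9 genes at an unadjusted p under 0.05 (12.5% and 14.1%, against 13.3% and 19.5% of all genes) and 0 calls without moderated variances. Against the own set the NAc counts were 0 for haloperidol (0.552% of all genes), 1 for risperidone (0.522%), 0 for methamphetamine (0.196%), 1 for mianserin (0.430%), 0 for venlafaxine (0%) and 3 for ketamine (2.27%). In PFCx, against all 8, the counts were 1 for haloperidol (0.608%), 3 for risperidone (1.73%), 2 for methamphetamine (0.970%) and 4 for mianserin (1.43%). Venlafaxine (0.0246%) and ketamine (0.0675%) called 0 in PFCx, with 8 and 7 genes at an unadjusted p under 0.05 (12.5% and 10.9%, against 8.79% and 7.96% of all genes) and again 0 without moderated variances. Against the own set the PFCx counts were 0 for haloperidol (0.0614%), 2 for risperidone (0.374%), 0 for methamphetamine (0.417%), 4 for mianserin (3.47%), 0 for venlafaxine (0.602%) and 0 for ketamine (1.73%). Calls against both controls were made for 5 genes: Kcnj2, Kcnn2, Kcnv1, Kcna1 and Kcna5.

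Kcnj2 was the subunit that fell most often. Its transcript is in the study's own lists, chosen on these same libraries, so its calls are no independent result. The gene (ENSMUSG00000041695) spans 111066164 to 111076821 of chromosome 11, and its product is the strong inward rectifier Kir2.1, which holds the resting potential. In PFCx the 8 saline libraries had 2.11 FPKM at the lowest, 2.33 at the median and 2.69 at the highest. The 4 mianserin libraries there had 1.46, 1.41, 1.30 and 1.02 FPKM, and the 4 risperidone libraries 1.33, 1.38, 1.26 and 1.38. Every one of these 8 drug libraries lay below every saline library. Kcnj2 fell by 45.9% with mianserin (log2 difference -0.57 ± 0.07 SE, limma, adjusted p = 9.30e-06, own set 5.29e-05) and fell by 44.2% with risperidone (-0.54 ± 0.07, adjusted p = 4.28e-05, own set 0.00218). In NAc, where saline gave 4.03, 5.30 and 5.72 FPKM, mianserin gave 3.57, 3.72, 3.80 and 3.80 and risperidone 3.66, 3.79, 3.41 and 3.55. Again no drug library reached the lowest saline library. Kcnj2 there fell by 26.9% with mianserin (-0.36, limma, adjusted p = 0.00490, own set 0.00185) and fell by 29.2% with risperidone (-0.40, adjusted p = 0.00121, own set 0.0473). In all 4 comparisons the exact permutation test, two-sided, gave its smallest value, p = 0.00202 with 8 and 0.0286 with 4 saline libraries. With risperidone in NAc the endothelial and mural marker sum was 17.4 to 20.1 against 19.8 to 24.5 FPKM in saline, and 1 of its 5 markers, Cldn5, was lower (limma, adjusted p = 0.0493, own set 0.165). Its part in the Kcnj2 result was not tested.

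Under the other drugs Kcnj2 was called against all 8 saline libraries only, or not at all. Methamphetamine in PFCx gave 1.68, 1.66, 1.75 and 1.41 FPKM, all below saline, and Kcnj2 fell by 32.2% (limma, adjusted p = 0.00452, own set 0.0880). Haloperidol in NAc gave 3.39, 4.07, 4.21 and 3.87 FPKM, 2 of them above the lowest saline library, and Kcnj2 fell by 23.7% (adjusted p = 0.0122, own set 0.273). Without the first haloperidol library this call was lost (adjusted p = 0.0738). Haloperidol in PFCx gave 1.93, 1.94, 2.04 and 1.51 FPKM, with a percent change of -22.6 that was not called (adjusted p = 0.0853, own set 0.721). Venlafaxine and ketamine gave percent changes of -19.8 and -9.84 in PFCx and of -1.51 and -1.20 in NAc, and methamphetamine one of -11.1 in NAc, none of them called (adjusted p from 0.288 to 0.945). A difference of the Kcnj2 effect between the tissues was not called (interaction F-test of limma, adjusted p = 0.294, own set 0.455).

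**Figure D3:**
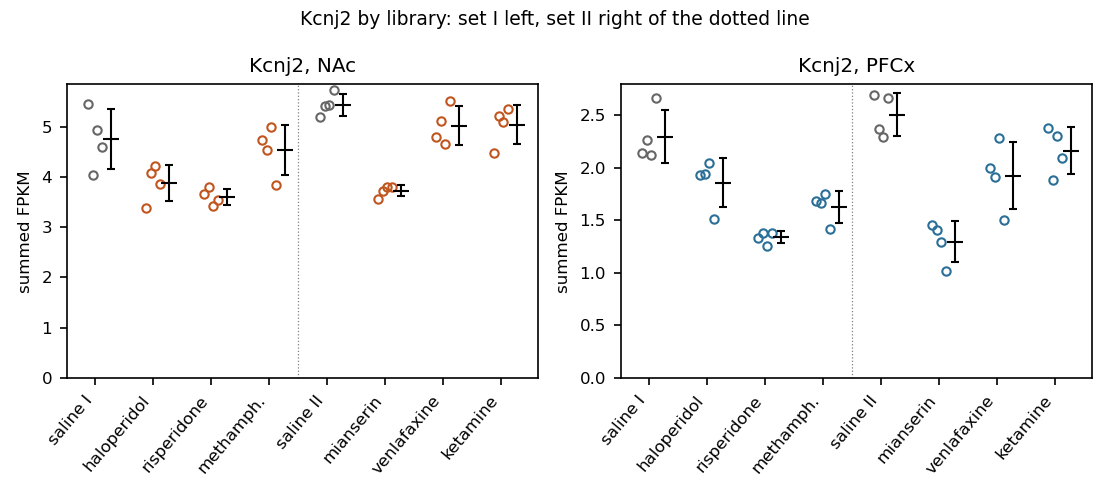
Kcnj2 level (FPKM) in all 64 libraries, NAc and PFCx in separate panels, by treatment; points are libraries, black ticks and bars are means ± SD, saline is grey and the dotted line divides sample sets I and II. The 4 mianserin and 4 risperidone libraries lay below every saline library in both panels, at 3.41 to 3.80 FPKM against 4.03 to 5.72 in NAc and at 1.02 to 1.46 against 2.11 to 2.69 in PFCx.

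The promoter of Kcnj2 is shown as that of the subunit gene with the most drug calls. It lies at chr11:111065914-111066213 on the plus strand of GRCm38.p6 in RefSeq, and capitals mark CACGTG (the E-box) and GGGCGG.
Kcnj2: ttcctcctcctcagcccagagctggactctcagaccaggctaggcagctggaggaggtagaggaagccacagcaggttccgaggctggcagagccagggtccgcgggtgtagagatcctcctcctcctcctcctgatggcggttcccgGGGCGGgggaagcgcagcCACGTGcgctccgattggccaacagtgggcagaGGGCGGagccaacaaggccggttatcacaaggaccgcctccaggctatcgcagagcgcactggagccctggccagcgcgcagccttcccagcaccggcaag
The E-box began 84 bases before the start and the window held 2 GC boxes. CACGTG stood in 7.15% of all promoter windows and in 3 of the 45 subunit windows (6.67%). The short site TGACG or its reverse complement CGTCA of the cyclic AMP response element, absent from the Kcnj2 window, stood in 20.8% of all and 10 of 45 subunit windows (22.2%), and the full element TGACGTCA in 1.79% and in none. TATAAA or TTTATA, the TATA box, stood in 13.6% of all windows and in 3 of the 45.

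A silent subunit and both a low-threshold and a delayed rectifier pore of the Kcna family changed in PFCx. Kcnv1 (ENSMUSG00000022342, chromosome 15, 45106284 to 45114920), which silences Kcnb channels, had 9.52, 10.6 and 11.3 FPKM in saline (lowest, median, highest of 8). Risperidone gave 8.10, 8.42, 8.15 and 8.03 FPKM and mianserin 8.21, 8.40, 8.98 and 8.50. All 8 drug libraries lay below all saline libraries. Kcnv1 fell by 22.8% with risperidone (log2 difference -0.34 ± 0.06 SE, limma, adjusted p = 0.00220, own set 0.0359) and fell by 19.6% with mianserin (-0.28 ± 0.06, adjusted p = 0.00991, own set 0.0129). Kcna1 (ENSMUSG00000047976, chromosome 6, 126640397 to 126646384) had 9.07, 9.35 and 9.62 FPKM in saline and 13.3, 11.5, 11.9 and 10.7 with mianserin, all 4 above saline, and rose by 26.7% (0.31 ± 0.06, adjusted p = 0.00394, own set 0.00906). Kcna5 had 0.312, 0.480 and 0.550 FPKM in saline and 0.910, 0.821, 0.841 and 0.829 with mianserin, and rose by 79.3% (0.33 ± 0.08, adjusted p = 0.0273, own set 0.0312). It stayed far below its NAc saline level of 5.65 ± 0.46 FPKM, and the call was lost when any of the mianserin libraries or the second saline library of set II was left out (adjusted p up to 0.103). All these PFCx values of Kcna5 lay below the limit of 1 FPKM, which its NAc level met.

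Kcnn2 rose in NAc with ketamine. It encodes a small-conductance calcium-activated pore that carries part of the afterhyperpolarisation. Saline gave 5.02, 5.73 and 6.90 FPKM (lowest, median, highest of 8) and ketamine 7.44, 8.26, 8.17 and 8.12. All ketamine libraries lay above all saline libraries, a rise of 36.1% (log2 difference 0.39 ± 0.07 SE, limma, adjusted p = 0.00350, own set 0.00157). Against the own set ketamine also called Kcnma1 (19.4 to 20.9 FPKM against 13.9 to 17.9, adjusted p = 0.0499). Kcnma1 was higher in saline set I than in set II without overlap (20.2 ± 0.785 and 16.5 ± 1.89 FPKM, n = 4 each), and was not called against all 8 (adjusted p = 0.310). The cortical projection marker sum was 40.6 to 69.7 FPKM with ketamine in NAc and 20.5 to 41.3 in its own saline set, and the oligodendrocyte sum 658 to 723 against 512 to 575. The astrocyte sum was 91.1 to 95.2 against 75.9 to 81.2 FPKM, and above all 8 saline libraries (highest 90.3). Of the markers, 3 of 5 for oligodendrocytes and 1 each for astrocytes, cortical projection neurons, interneurons and spiny neurons were called against the own set. The spiny neuron marker, Adora2a, was lower (log2 difference -0.42, limma, adjusted p = 0.0102, own set 0.0484), and the spiny sum was 530 to 740 against 628 to 839 FPKM. The part of these in the ketamine results was not tested.

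**Figure D4:**
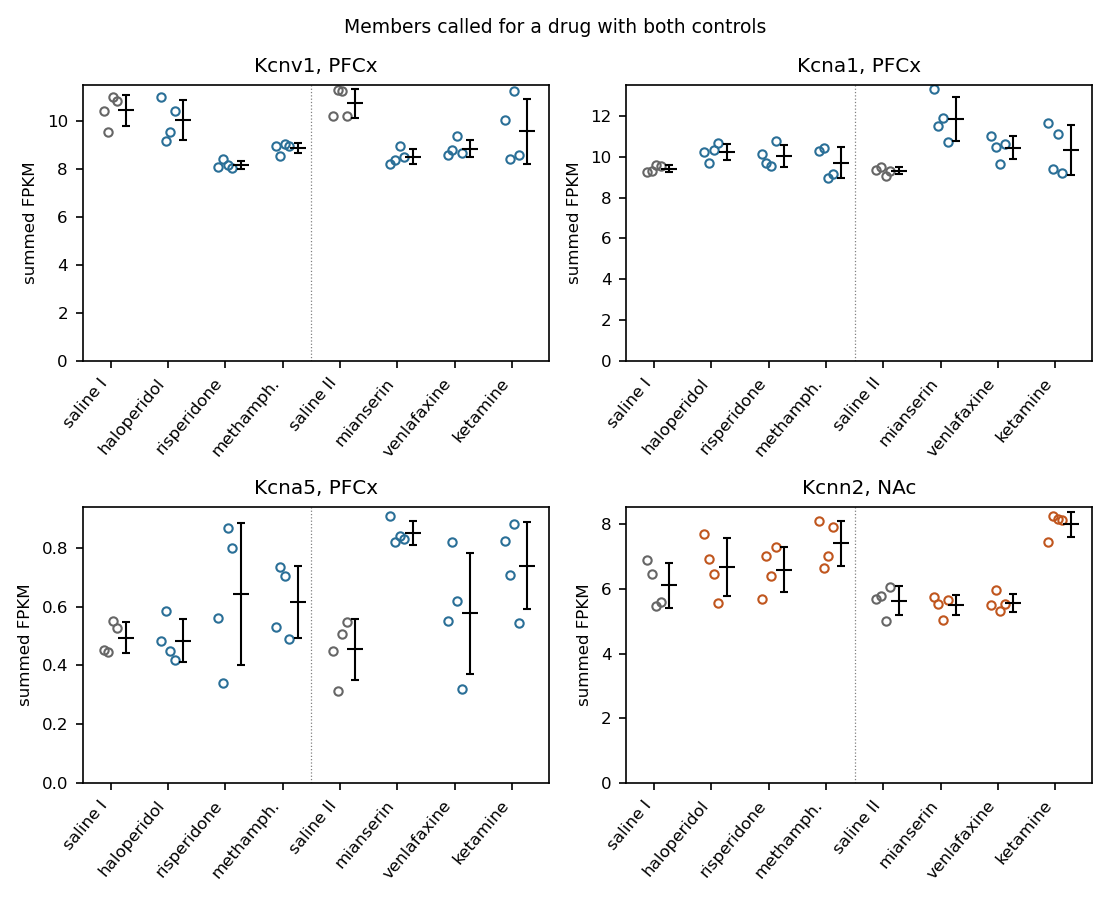
FPKM by treatment of the other 4 genes called against both controls, Kcnv1, Kcna1 and Kcna5 in PFCx and Kcnn2 in NAc; points are libraries, black ticks and bars are means ± SD, saline is grey and the dotted line divides sample sets I and II. Risperidone and mianserin lay below saline for Kcnv1, mianserin above saline for Kcna1 and Kcna5, and ketamine above saline for Kcnn2, in each case with all 4 libraries.

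The remaining calls held against all 8 saline libraries only. Kcnh7 in PFCx fell with all 3 drugs of set I, from saline levels of 17.8, 18.9 and 20.7 FPKM (lowest, median, highest). Risperidone gave 15.8, 15.1, 15.2 and 15.6 FPKM, and Kcnh7 fell by 19.2% (limma, adjusted p = 0.00361, own set 0.101). With methamphetamine it fell by 17.0%, to 17.3, 16.1, 15.6 and 14.4 FPKM (adjusted p = 0.0140, own set 0.215), and with haloperidol it fell by 15.5%, to 15.8, 15.9, 16 and 16.6 (adjusted p = 0.0467, own set 0.565, and 0.0580 with the replicate block). Each of these 12 libraries lay below each saline library, and 17.8 FPKM, the lowest saline value, belonged to set I. Without the fourth methamphetamine library the call of that drug was lost (adjusted p = 0.110). In NAc haloperidol changed Kcnj6 (58.4% higher, 4.69 to 6.07 against 2.04 to 4.46 FPKM, adjusted p = 0.0316, own set 0.550), Kcnf1 (30.9% higher, 9.30 to 11.5 against 6.92 to 9.34, adjusted p = 0.0262, own set 0.406) and Kcnd1, which fell by 38.9% (0.844 to 1.05 against 1.23 to 2.15, adjusted p = 0.0442, own set 0.558). Risperidone raised Kcna5 in NAc by 26.0% (6.28 to 7.84 against 5.17 to 6.54 FPKM, adjusted p = 0.0439, own set 0.246, and 0.0539 with the replicate block). These 4 NAc calls were each lost in 6 to 8 of the 12 fits that left out 1 library, as was that of Kcnh7 with haloperidol in PFCx. The cortical projection marker sum with haloperidol in NAc was 55.8 to 76.4 FPKM against 20.5 to 63.9 in saline, the astrocyte sum 88.4 to 97.6 against 75.9 to 90.3 and the oligodendrocyte sum 646 to 712 against 512 to 703. Their part in the rise of Kcnj6 and Kcnf1, both higher in PFCx, was not tested.

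In NAc, Kcnq1 and Kcnj6 had a larger log2 difference between the saline sets than between any drug and its own saline. Kcnq1 had 0.145 ± 0.062 FPKM in saline I and 0.990 ± 0.362 in saline II (n = 4 each), and Kcnj6 had 4.06 ± 0.284 and 2.59 ± 0.577. Their sets did not overlap (exact permutation test, two-sided, p = 0.0286, the smallest it can give). Kcnq1 shared 2.96% of its exonic bases with the antisense RNA Kcnq1ot1. For a drug with saline of the other set, the set and the drug cannot be told apart. The interaction F-test, which asks whether a drug acted unequally in NAc and PFCx, called 3 genes, Kcna1 (limma, adjusted p = 0.0119), Kcnq1 (0.0195) and Kcnf1 (0.0370), where 3.75% of all genes were called. None of the 3 was called against the own set (adjusted p = 0.215, 0.834 and 0.795). For Kcna1 the mianserin difference was 0.31 in PFCx and -0.00 in NAc on the log2 scale (interaction for that drug alone, adjusted p = 0.0723). Taken singly against the own set, ketamine called 3 genes (3.78% of all genes), each with a positive log2 difference in NAc and a negative one in PFCx. They were Kcnh7 (0.53 and -0.23, adjusted p = 0.00254), Kcnma1 (0.29 and -0.11, adjusted p = 0.00370) and Kcnt2 (0.22 and -0.14, adjusted p = 0.0358). None of the 3 was called against all saline libraries (adjusted p = 0.129, 0.366 and 0.145).

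**Figure D5:**
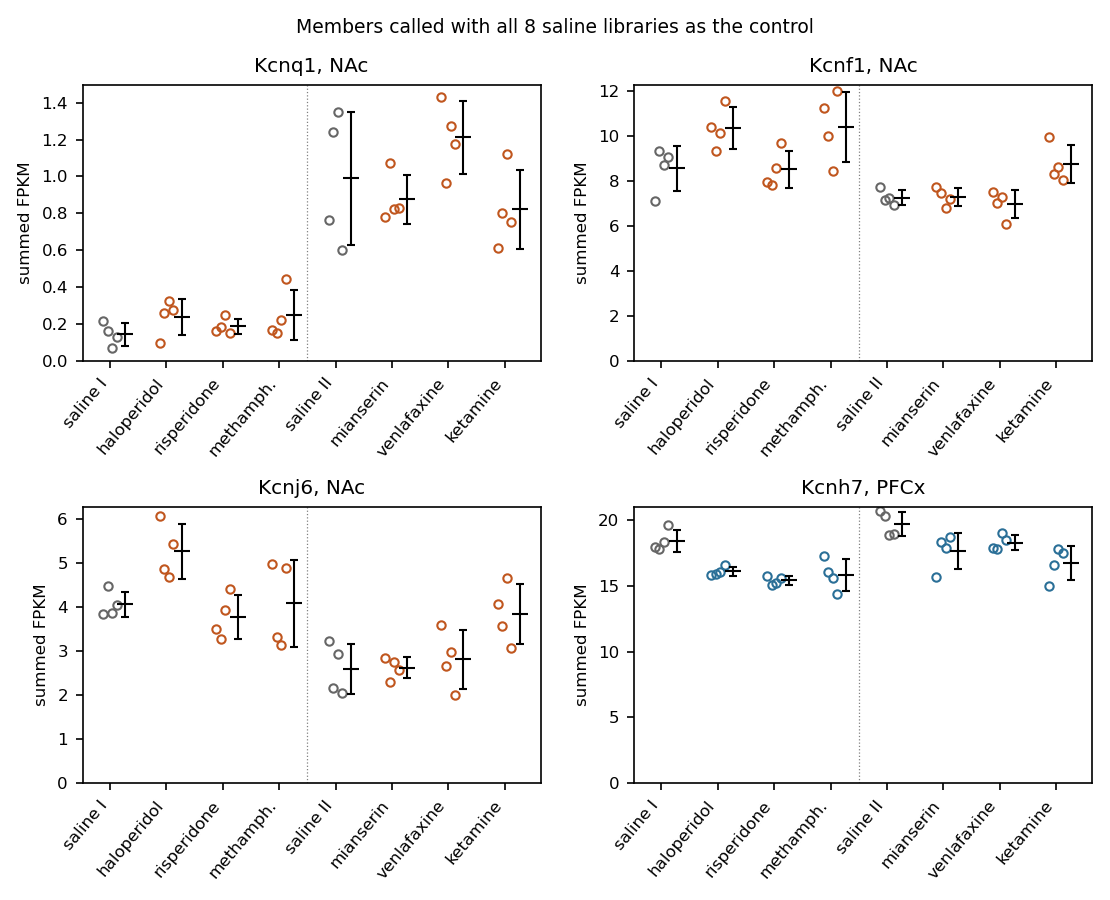
FPKM by treatment of Kcnq1, Kcnf1 and Kcnj6 in NAc and Kcnh7 in PFCx; points are libraries, black ticks and bars are means ± SD, saline is grey and the dotted line divides sample sets I and II. Kcnq1 followed the set (saline I 0.145, saline II 0.990 FPKM), and Kcnh7 was below saline with the 3 drugs of set I.

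Among transcripts the drug F-test called 32 in NAc against all 8 saline libraries (11.6% of all transcripts tested) and 1 against the own set (0.645%), and 3 in PFCx against either (1.12% and 0.484%). The only NAc transcript called against both was that of Kcnj2, ENSMUST00000042970 (limma, adjusted p = 0.00051 and own set 0.00125), which was also called in PFCx (0.000108 and 0.000185). The next lowest in NAc were protein-coding transcripts of Kcnj6, Kcnu1, Kcnf1, Kcna4, Kcnh3, Kcnj15 and Kcnh8 (0.00104 to 0.00600), with own-set values of 0.105 to 1. In PFCx it was joined by the Kcnv1 transcript ENSMUST00000022967 (0.0111 and 0.0219) and by ENSMUST00000131799 of Kcnh7, a processed transcript of 1079 bases (0.00549 and 0.0127).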

How the data were processed

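Total RNA was measured in 64 libraries, 32 per tissue, on an Ion Torrent instrument. The authors aligned the reads to mm10 with TopHat2 2.0.1 and estimated transcript levels with Cufflinks 2.2.1 on Ensembl transcripts. The deposited tables give each transcript's FPKM and its coverage (reads per base), and no counts. FPKM was summed per gene. Coverage, a signal in the deposited tables, was divided by FPKM to work out aligned gigabases per library. This depth sets the precision of the low genes, and no counting interval can be given. Genes with a mean of at least 1 FPKM in either tissue (16291) and transcripts of at least 0.1 (86331) were tested with limma 3.58.1 (R 4.3.3) on log2(FPKM + 1) and Benjamini-Hochberg adjustment over all of them, at a threshold of 0.05. Fold changes and percent changes are ratios of mean FPKM, and log2 differences are on the log2(FPKM + 1) scale, which understates changes of low genes. A gene could reach the limit of 1 FPKM through 1 tissue alone, which favours a call toward that tissue. Single genes were also tested by exact permutation, two-sided, with Python 3.11.15. Whole-table fits were tested on simulated data.

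Tissues were compared in saline libraries, and drugs with all 8 saline libraries of the tissue or with the 4 of the own set. The labels give the set of saline libraries, and that of each drug was read from the number of NAc transcripts above 0, a technical measure, and carried over to its PFCx libraries. The p-values measure the spread between libraries, and the labels do not say that these came from separate animals. Named were the 12 largest called log2 differences per direction between tissues among genes whose 8 and 8 saline libraries did not overlap. Also named were all drug calls against both controls, up to 5 per tissue against 1 control, the 10 lowest drug F-tests per tissue, the most abundant genes of each family and up to 8 transcripts. The other genes of a family or class that the text gives were named after their values were seen. The family, the marker lists and the tests were chosen with earlier results of these data known. Exon overlaps were taken from GENCODE vM21 and promoters from RefSeq, which matched 45 of the 64 tested genes. Some genes that the rule named are not reported here. Alternatives covered the control, pseudocount, filter, scaling, variance model, threshold, replicate block and each library left out.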

Additional observations from a re-analysis of the deposited data

Results flagged for a closer look

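Of the groups tested with Dixon's 95% limit, which chance exceeds in about 1 of 20 groups, 3 held a library apart from the others. The number of groups tested is not given here, so these 3 cannot be told from what chance gives. Kcna5 had its lowest saline PFCx value in the second library of set II (0.312 FPKM, next 0.446), a gap of 0.562 of the group's range. Kcnk4 had its lowest saline PFCx value in the fourth library of set II (0.819 FPKM, next 1.34), a gap of 0.566 of the range. Kcnd1 with haloperidol in NAc had its lowest value in the fourth library (0.844 FPKM, next 1.03), a gap of 0.897 of the range. The drug effect differed between NAc and PFCx by the interaction F-test of limma over all 64 libraries for Kcna1 (adjusted p = 0.0119), Kcnf1 (adjusted p = 0.0370) and Kcnq1 (adjusted p = 0.0195), and none of the 3 was called with saline of the own set.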

How the results depend on the processing

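Of 24 tissue differences of named genes, all 692 alternative values kept their direction and call. These genes were picked for large differences without overlap, so this does not speak for the other genes. Of all 51 called genes, 41 kept the call in both saline sets alone, and 3 lost it after rescaling to the 75th percentile. Of 19 named drug differences, 379 of 468 alternative values matched the main fit in direction and in being called or not. A further 88 values of 16 differences lost the call, 1 gained one, and none reversed. The 379 include 24 values of Kcnma1 with ketamine in NAc, which was not called in the main fit and was not called in these either. The causes were not tested except where fewer genes or libraries entered. The depth of 1.52 to 3.26 gigabases limits genes near 1 FPKM most.

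Counts of called genes moved with the control. With saline of the own set the drug F-test called 3 genes in NAc and 3 in PFCx, the tissue interaction 0, haloperidol 0 in both tissues, risperidone 1 in NAc, methamphetamine 0 in PFCx and ketamine 3 in NAc. With set I alone as saline, the calls were interaction 6, NAc haloperidol 0, risperidone 0, mianserin 10, venlafaxine 10 and ketamine 8, and PFCx haloperidol 0, risperidone 1, methamphetamine 0, mianserin 8 and venlafaxine 2. With set II alone they were interaction 10, NAc haloperidol 25, risperidone 13, methamphetamine 12 and ketamine 3, and PFCx haloperidol 7, risperidone 10 and methamphetamine 9. Drug F-tests of transcripts gave 1 in NAc with the own set and 12 in PFCx with set II, and tissue differences of transcripts gave 18 higher in NAc with set I only.

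With no filter the calls were F-test in NAc 43, interaction 14, and in NAc haloperidol 2, risperidone 1, mianserin 2, venlafaxine 2 and ketamine 3. With a mean FPKM of at least 5 they were tissue 33, higher in PFCx 19, and in NAc haloperidol 2, risperidone 1, methamphetamine 1, mianserin 0, venlafaxine 2 and ketamine 3. Rescaling to the 75th percentile gave 1 for risperidone in NAc, 4 for methamphetamine in PFCx and 74 transcripts by the F-test in NAc. A pseudocount of 0.1 gave 0 for haloperidol in PFCx, a mean-variance trend 1 for methamphetamine in NAc, and fits without moderated variances 4 for methamphetamine in PFCx. At an adjusted p under 0.0001, the F-test kept 0 in NAc and 1 in PFCx, the interaction 0, risperidone 1 and mianserin 1 in PFCx, and every other drug comparison with calls 0. Transcripts at that limit were 41 between tissues, 14 higher in NAc and 27 in PFCx, and 0 by the F-test in either tissue.

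Libraries with the same number deviated together weakly within a tissue (mean correlation 0.09 within NAc and 0.10 within PFCx, against -0.03 and -0.03 for other numbers). Between tissues the mean was 0.01. Whether equal numbers stand for a shared preparation or animal was not tested. With the replicate block the interaction gave 5, ketamine in NAc 2, risperidone in NAc 1 and haloperidol in PFCx 0. The block moved no other count by over 1.5 times.

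Leaving out 1 library gave 50 to 53 tissue calls (20 to 21 higher in NAc, 30 to 33 in PFCx), 19 to 28 F-test calls in NAc, 3 to 9 in PFCx and 2 to 4 for the interaction. In NAc the ranges were haloperidol 0 to 5, risperidone 1 to 2, methamphetamine 0 to 1, mianserin 1 to 2, venlafaxine 0 to 3 and ketamine 1 to 2. In PFCx they were haloperidol 0 to 5, risperidone 3 to 4, methamphetamine 1 to 3, mianserin 3 to 4, venlafaxine 0 to 0 and ketamine 0 to 0. For transcripts they were 71 to 79 between tissues, 25 to 30 higher in NAc, 45 to 52 higher in PFCx, and by the F-test 28 to 36 in NAc and 3 to 4 in PFCx.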
